A study of Rattus norvegicus with 6 samples.

Results

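Transcripts of 10 glycolytic enzymes were followed in cultured synovial fibroblast-like cells that grew in 3 kinds of serum. The members were chosen by symbol (Gpi, Pfkp, Aldoa, Tpi1, Gapdh, Pgk1, Pgam1, Eno1, Pkm2 and Ldha), with the most abundant transcript row kept for each, and make up 10 of the 16499 symbols in the deposited table. The cells came from 2 female Wistar rats with collagen-induced arthritis, an arthritis raised by immunisation with cartilage collagen, and the cells of each rat were divided over all 3 conditions. The medium held fetal bovine serum (FBS), rat serum of animals that had received no stimulation (MS-, AP- in the labels), or rat serum drawn after 18 days of stimulation by needles (MS+, AP+ in the labels, which call it acupuncture). The labels name no genetic change in any group. For MS-, the labels name the rats both as healthy and as arthritic, the methods describe its drawing in more than 1 way, and the number of serum donors is not stated. The replicate was therefore the rat that gave the cells (n = 2 per condition). Where the rat was left out of the model, p-values measure the spread between cells of these 2 rats. Where it was a block, its mean difference was taken out, and p-values measure the scatter that remained between sera within rats. Neither kind of p-value measures the spread between serum donors.

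Glycolysis splits glucose into pyruvate in the cytosol and yields ATP without oxygen. Fibroblasts in culture, and those of the inflamed joint lining, are known for heavy use of this pathway and for release of lactate. Its enzymes are abundant housekeeping products, many are also targets of the hypoxia-inducible factor HIF, and 1 of them, Gapdh, served the study as a reference transcript in quantitative PCR.

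The libraries held 5463316 to 5991889 reads each, and a floor of 3 reads corresponded to 0.491 to 0.551 CPM (read counts scaled to a common library size by the TMM method, which corrects for composition). The FBS libraries were the deepest, at 5926713 and 5991889 reads. Fibroblast markers had reads for 12 of 12 listed genes, with a summed level of 62836 to 88030 CPM, but Dcn and Lum, which encode matrix proteoglycans of fibroblasts, stayed below 1 CPM in each library and Prg4, the lubricin gene of the synovial lining, was at 1.27 to 3.32 CPM. In the table, 8 of 8 blood cell, 6 of 12 macrophage and 4 of 6 endothelial markers were listed at 0 in each library, of which Ptprc, Lyz2, Hbb and Hbb-b1 overlap other rows and so could have lost shared reads. The macrophage markers summed to 13.8 to 20.9 CPM, most of it Cd14 at 12.1 to 19.4 CPM, and the endothelial ones to 0.18 to 1.47 CPM. Of the skeletal muscle markers, 10 of 11 had reads and their sum was 986 to 1287 CPM, most of it Acta1 at 766 to 1200 CPM. In bulk RNA such as this, fewer cells of a type and less RNA per cell cannot be told apart.

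All 10 members passed the filter on low values, which asked for 1 CPM in both libraries of a condition. Their summed level was 2138 and 1815 CPM in the FBS libraries (rat 1 and rat 2), 1781 and 1646 CPM in MS-, and 1891 and 1821 CPM in MS+. For 8 of the 10 members the FBS library of rat 1 held the highest level, and the FBS library of rat 2 did so for none. For 6 members the lowest was in an MS- library. The share of all features with these patterns was not computed. The log2 range over the 6 libraries had a median of 0.58 among members, the same as the 0.58 among all 9820 tested features and more than the 0.46 among the 1033 features at least as abundant as the median member. Aldoa and Eno1 each have 2 overlapping rows, and reads that both rows share were dropped, so their values cover only part of each transcript. Pgam1 is represented by a row of only 322 bp on chromosome 6 of rn4, while the RefSeq assembly GRCr8 places the gene on another chromosome, so that row is uncertain.

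**Figure D1:**
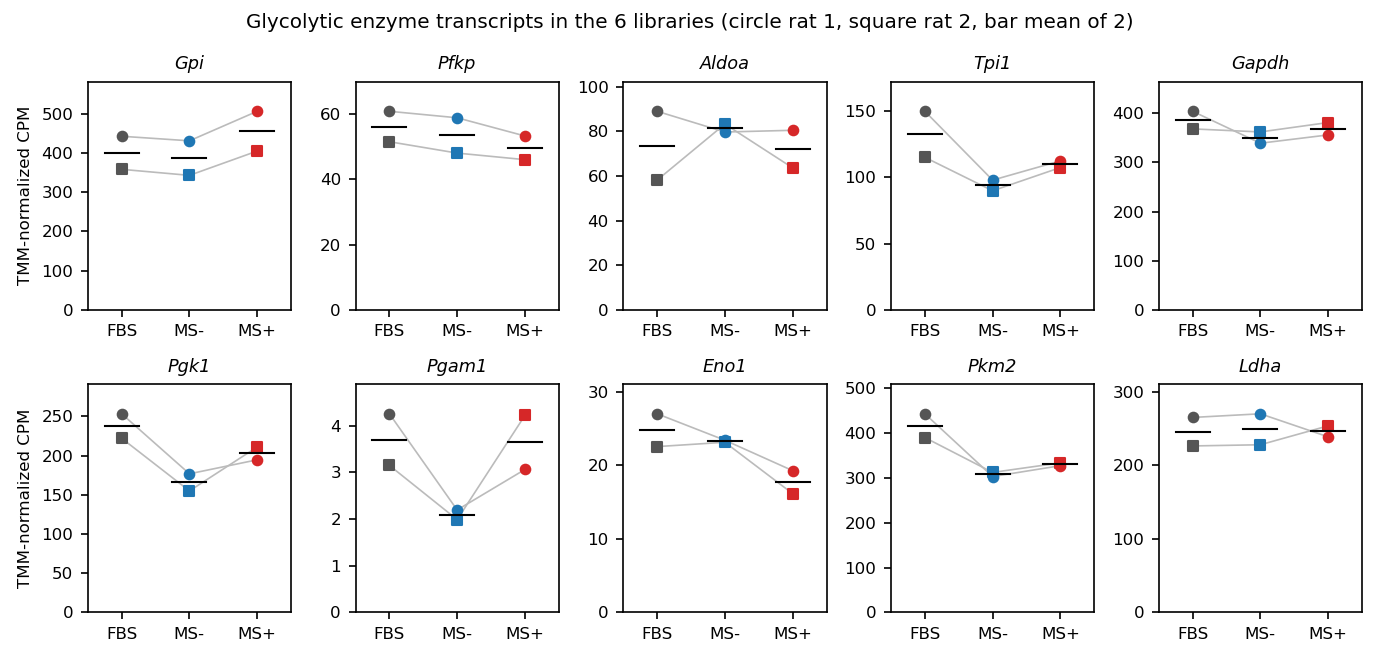
TMM-normalized CPM (y axis, linear, from 0) of the 10 enzymes in each condition (x axis), with circles for cells of rat 1, squares for rat 2, grey lines joining the libraries of a rat and black bars for the mean of 2. Pgk1, Tpi1 and Pkm2 sit lower in both MS- libraries than in both FBS libraries, whereas Ldha and Gapdh overlap or nearly touch across conditions.

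Among the enzymes of the first steps, none passed the test between sera. Gpi, which converts glucose 6-phosphate to fructose 6-phosphate, was at 443 and 358 CPM with FBS, 431 and 343 with MS- and 506 and 405 with MS+. In each serum the cells of rat 2 held less Gpi than those of rat 1, by 0.30, 0.33 and 0.32 on the log2 scale in FBS, MS- and MS+, while MS+ was above MS- within both rats. The difference MS+ minus MS- was 0.24 ± 0.17 (SE) on the log2(CPM + 1) scale used for all fold changes here, with a limma adjusted p of 0.587 without and 0.0667 with the rat as a block. Pfkp, the platelet isoform of phosphofructokinase, which commits sugar to glycolysis, was at 60.9 and 51.6 CPM with FBS, 58.9 and 48.1 with MS- and 53.3 and 46.1 with MS+. Its level was again lower in rat 2 in each serum, and the conditions overlapped. Aldoa, which splits fructose 1,6-bisphosphate, was at 89.1 and 58.2 CPM with FBS, 79.8 and 83.3 with MS- and 80.5 and 63.7 with MS+, so the spread between the 2 FBS libraries covered all the others.

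Promoter sequences are shown for 3 members: Ldha, whose conditions overlapped, and Tpi1 and Pkm, which were lower in MS- than in FBS with the rat as a block. Each is the 250 bases before the start site annotated by RefSeq on GRCr8, read 5′ to 3′ on the gene's own strand, in lower case, with ACGTG on either strand in capitals. ACGTG is 1 form of the core of the element bound by HIF and forms part of the E-box CACGTG. Windows were searched for ACGTG only, so other forms of that core are neither marked nor counted. The windows are chr1:106507842-106508091 (plus strand) for Ldha, chr4:159305089-159305338 (minus strand) for Tpi1 and chr8:68953385-68953634 (plus strand) for Pkm, the current symbol of the row named Pkm2.
Ldha: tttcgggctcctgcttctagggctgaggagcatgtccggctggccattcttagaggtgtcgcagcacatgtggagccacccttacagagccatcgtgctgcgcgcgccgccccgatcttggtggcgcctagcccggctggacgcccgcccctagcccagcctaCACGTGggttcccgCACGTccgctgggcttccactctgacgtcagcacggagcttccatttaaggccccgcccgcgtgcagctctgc
Tpi1: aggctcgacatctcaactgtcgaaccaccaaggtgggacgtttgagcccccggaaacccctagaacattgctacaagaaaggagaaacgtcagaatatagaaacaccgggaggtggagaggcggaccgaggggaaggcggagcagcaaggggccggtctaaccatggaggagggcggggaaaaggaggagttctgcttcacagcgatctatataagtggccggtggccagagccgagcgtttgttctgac
Pkm: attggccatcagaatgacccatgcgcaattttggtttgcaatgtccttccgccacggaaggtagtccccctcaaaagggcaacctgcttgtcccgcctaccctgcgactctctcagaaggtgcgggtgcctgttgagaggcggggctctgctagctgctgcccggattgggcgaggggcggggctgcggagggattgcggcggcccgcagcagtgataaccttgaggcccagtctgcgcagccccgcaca
Ldha held 3 matches, of which 2 overlap within 1 CACGTG, and the windows of Tpi1 and Pkm held none. By accession all 10 members were found in RefSeq and 9 of them have a promoter in the table, with 12 start sites, while Pgk1 is named only. Of those 12 windows 4 (33.3%), in Aldoa, Gapdh, Pgam1 and Ldha, held ACGTG, against 16.6% of all 33469 windows of the same length in the table. CACGTG was in 1 of the 12 and in 5.59% of all. These matches are a description of letters in a window, and no binding was measured.

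In the middle of the pathway 2 enzymes, Tpi1 and Pgk1, were lower in MS- than in FBS once the rat was a block. Tpi1 (NM_022922, chr4:160933341-160936871 on the minus strand of rn4), which interconverts the 2 triose phosphates, was at 150 and 115 CPM with FBS, 97.9 and 89.8 with MS- and 112 and 107 with MS+. Both MS- libraries lay below every other library, and those of MS+ lay below both of FBS. MS- minus FBS was -0.48 ± 0.14 without and -0.48 ± 0.098 (SE) with the rat as a block, a level 28.4% lower, with limma adjusted p of 0.11 and 0.00243. The Tpi1 span overlaps that of Spsb2 on the opposite strand. If counting did not use strand, reads in sequence shared by both were dropped, and if it did, they were assigned by strand. Which of these applied was not established here.

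Gapdh, which oxidises glyceraldehyde 3-phosphate and makes NADH, was at 404 and 368 CPM with FBS, 339 and 362 with MS- and 356 and 381 with MS+. Both MS- libraries lay just below both FBS libraries, those of MS+ overlapped both, and no difference passed the test. MS- minus FBS was -0.14 (95% interval -0.37 to 0.091) on the log2 scale, MS+ minus FBS was -0.07 (-0.30 to 0.16) and MS+ minus MS- was 0.07 (-0.16 to 0.30), with limma adjusted p of 0.471, 0.7 and 0.788. With the rat as a block, the interval for MS- minus FBS was -0.32 to 0.042.

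Pgk1 (NM_053291, chrX:94324219-94340193 on the plus strand of rn4), which makes the first ATP of the pathway's payoff phase, had the lowest adjusted p of the set for MS- against FBS. It was at 253 and 222 CPM with FBS, 177 and 155 with MS- and 195 and 211 with MS+, so the 3 conditions did not overlap and MS+ lay between the others. MS- minus FBS was -0.52 ± 0.11 (SE), 30.1% lower, with limma adjusted p of 0.0526 without and 0.000918 with the rat as a block. MS+ exceeded MS- by 0.29 ± 0.093 with the block (adjusted p = 0.307 without and 0.0592 with it), and MS+ minus FBS was -0.23 (adjusted p = 0.247 and 0.081). Pgam1, which moves the phosphate of phosphoglycerate, rested on 11 to 26 reads per library. Its level was 4.26 and 3.15 CPM with FBS, 2.20 and 1.99 with MS- and 3.06 and 4.22 with MS+, and the 95% interval for MS- minus FBS ran from -1.19 to 0.0025.

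At the end of the pathway, with the rat as a block, Eno1 was lower in MS+ than in FBS, Pkm2 was lower in both rat sera, and Ldha passed in no comparison. Eno1, which forms phosphoenolpyruvate, was at 27.0 and 22.5 CPM with FBS, 23.4 and 23.1 with MS- and 19.3 and 16.2 with MS+, and both MS+ libraries were the lowest. MS+ minus FBS was -0.46 ± 0.15 (SE) with the rat as a block, with a limma adjusted p of 0.0272 against 0.114 without it, and MS+ minus MS- was -0.38 (adjusted p = 0.116 and 0.33). These values rest on 88 to 165 reads per library in the unshared part of the transcript.

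Pkm2 (NM_053297, chr8:63486492-63508016 on the plus strand of rn4), the pyruvate kinase that closes glycolysis, was at 443 and 390 CPM with FBS, 303 and 312 with MS- and 327 and 333 with MS+. All 4 rat serum libraries lay below both FBS libraries. MS- minus FBS was -0.43 ± 0.097 (SE) without and -0.43 ± 0.084 with the rat as a block, 25.9% lower, with limma adjusted p of 0.0565 and 0.00174. MS+ minus FBS was -0.33 ± 0.084 with the block, 20.5% lower, with adjusted p of 0.081 without and 0.0083 with it. The table has 1 row for this gene, so its alternatively spliced M1 and M2 forms were not told apart.

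Ldha, which turns pyruvate into lactate, was at 265 and 226 CPM with FBS, 270 and 228 with MS- and 239 and 253 with MS+. Its conditions overlapped in each pair, and the 95% intervals with the rat as a block were -0.18 to 0.22 for MS- minus FBS, -0.19 to 0.20 for MS+ minus FBS and -0.21 to 0.19 for MS+ minus MS-. Those bounds leave out changes of the size seen in Pgk1 and Pkm2 between MS- and FBS, but whether Ldha differed from them in its response was not tested.

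**Figure D2:**
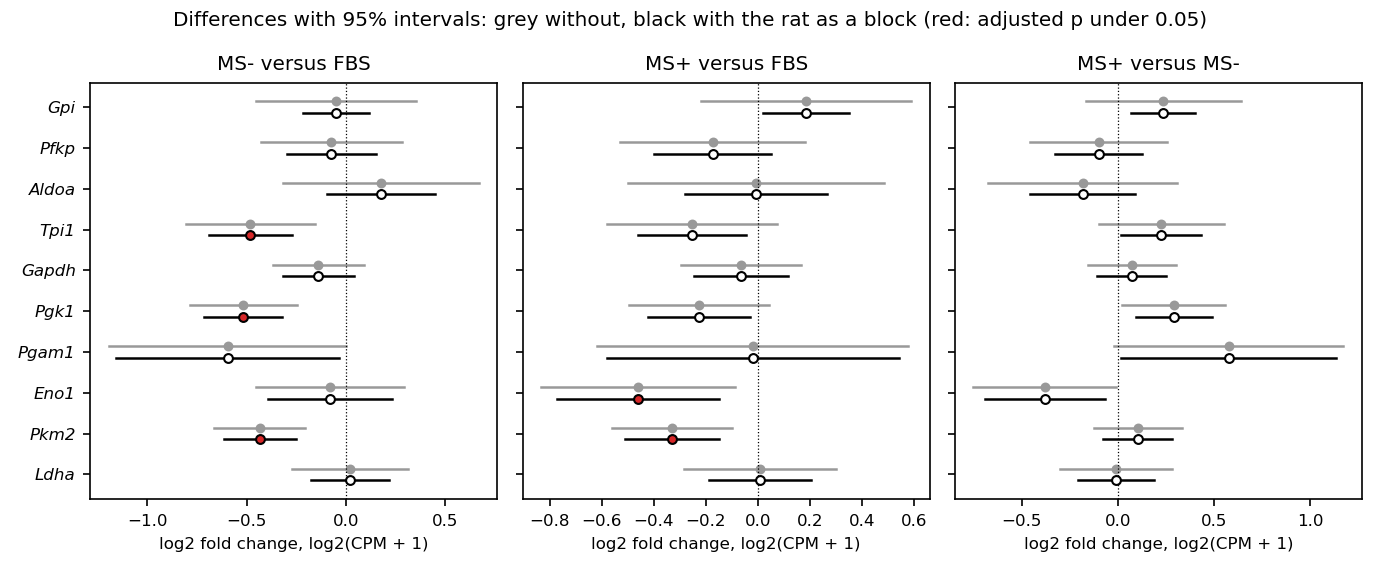
Log2 fold change on the log2(CPM + 1) scale (x axis) of each enzyme (y axis) in the 3 comparisons, with 95% intervals in grey without and in black with the rat as a block, red points marking a limma adjusted p under 0.05 with the block. Red points are Tpi1, Pgk1 and Pkm2 for MS- against FBS and Eno1 and Pkm2 for MS+ against FBS, all to the left of 0.

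Counted over the set, MS- against FBS gave 0 of 10 members past an adjusted p of 0.05 in limma without the block, where 4.81% of all tested features were called (2.09% higher and 2.72% lower). With the block it gave 3 lower and 0 higher members (Tpi1, Pgk1 and Pkm2), where 20.5% of features were called (9.63% lower and 10.8% higher). At an unadjusted p under 0.05, 3 members passed without and 4 with the block, where 21.1% and 32.3% of features did. The median log2 fold change of the members was -0.11, against 0.01 over all features. Without overlap between the 2 groups, 5 members were lower in MS- and 0 higher, where 24.5% of features were lower and 27.1% higher. In 8 members the sign was the same in both rats, and the share of all features for which this held was not computed.

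MS+ against FBS gave 0 members without the block, where 9.61% of features were called (4.95% higher and 4.66% lower), and 2 lower and 0 higher members with it (Eno1 and Pkm2), where 28.2% were called (13.9% lower and 14.4% higher). At an unadjusted p under 0.05, 2 members passed without and 5 with the block (27.5% and 39.2% of features). The median was -0.12 against 0.00 over all features, and 4 members were lower without overlap and 0 higher, where 28.3% of features were lower and 28.4% higher. This comparison uses the same FBS libraries as the one above, so the values of 1 do not support those of the other.

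MS+ against MS-, the comparison of stimulated with unstimulated serum, gave 0 members without the block, where 0.0204% of features were called in limma (0.0102% in each direction), and 0 with it, where 10.1% were (5.27% higher and 4.78% lower). At an unadjusted p under 0.05, 2 members passed without and 5 with the block (14.7% and 24.6% of features). The median was 0.09 against -0.01 over all features. Within rats the member median was 0.090 in rat 1 and 0.12 in rat 2. The sign was the same in both rats for 8 members, a count for which the share of all features was likewise not computed. Pgk1, Tpi1 and Pkm2 were higher in MS+ without overlap, as was Pgam1, while Eno1 was lower without overlap, where 22.6% of features were higher and 23.1% lower.

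Calls with the block rest on few libraries. When each of the 6 was left out in turn, Pgk1 and Pkm2 stayed past the threshold for MS- against FBS in 5 of 6 fits, with an adjusted p of 0.0903 for Pgk1 without rat 2 of MS- and 0.138 for Pkm2 without rat 1 of MS-. Tpi1 did so in 3 of 6, with a highest adjusted p of 0.119, and lost the call without rat 1 of FBS or either MS- library. For MS+ against FBS, Pkm2 stayed called in 5 of 6 fits (0.133 without rat 1 of FBS) and Eno1 in 2 of 6, lost without rat 1 of FBS, either MS- library or rat 2 of MS+, with a highest adjusted p of 0.172. The fibroblast marker sum also differed by serum, at 81174 to 88030 CPM in FBS, 62836 to 65442 in MS- and 71284 to 73969 in MS+, most of it from 2 collagen genes, Col1a1 and Col1a2. Sequencing depth was likewise highest in FBS, and the part of either in the enzyme values was not tested.

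Isozymes and regulators of the same steps were measured as a second list, of which 13 of 21 genes passed the filter, while Hk1 and Tigar were not analysed here. Without the block 0 of the 13 passed in any comparison, where 4.81% (MS- against FBS), 9.61% (MS+ against FBS) and 0.0204% (MS+ against MS-) of features did. At an unadjusted p under 0.05, 2 passed for MS- against FBS and 0 in the others, against 21.1%, 27.5% and 14.7% of features in the same order. With the block 2 were lower and 1 higher in MS- than in FBS, where 20.5% of all features were called (9.63% lower and 10.8% higher). Hk2, a hexokinase that traps glucose in the cell, was at 23.1 and 27.9 CPM with FBS, 15.4 and 19.5 with MS- and 22.0 and 22.4 with MS+, and fell by 0.52 in MS- (limma adjusted p = 0.0201 with the block, 0.142 without). Pfkl, the liver form of phosphofructokinase, was at 66.3 and 52.1 CPM with FBS, 43.5 and 42.5 with MS- and 41.6 and 53.2 with MS+, and fell by 0.44 in MS- (0.0347 with the block, 0.188 without). Bpgm, which makes 2,3-bisphosphoglycerate, was higher than in FBS in both rat sera with the block (adjusted p = 0.0132 for MS- and 0.0337 for MS+), mostly in the cells of rat 1, at 78.7 CPM with FBS, 151 with MS- and 136 with MS+ against 41.3, 46.5 and 44.1 in rat 2. Pfkm, the muscle form, lay between 23.6 and 33.2 CPM and passed in no comparison.

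Genes for the fate of pyruvate and lactate passed the test also without the block. Of 19 tested genes in this list, 5 were higher and 0 lower in MS+ than in FBS without the block (4.95% of features were called higher), and 5 were higher and 1 lower with it (14.4% and 13.9% of features). Pdk4, a kinase that shuts down pyruvate dehydrogenase, was at 1.64 and 1.82 CPM with FBS, 15.7 and 16.6 with MS- and 40.5 and 39.8 with MS+, a log2 fold change of 3.92 for MS+ against FBS (limma adjusted p = 0.000298) and 2.65 for MS- (0.00185). Slc16a7, the carrier MCT2 that brings pyruvate and lactate into cells, was at 30.1 and 32.8 CPM with FBS, 47.2 and 47.0 with MS- and 78.2 and 66.6 with MS+, and rose in MS+ against FBS by 1.17 (0.00526) and in MS- by 0.57 (0.0493). Pdha1, a subunit of the pyruvate dehydrogenase that Pdk4 inhibits, was at 151 and 161 CPM with FBS, 185 and 186 with MS- and 239 and 235 with MS+, and rose in MS+ by 0.60 (0.0107).

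In the opposite direction, Slc16a3, the carrier MCT4 that exports lactate, was at 54.7 and 29.8 CPM with FBS, 29.3 and 18.6 with MS- and 23.6 and 14.3 with MS+. It fell within both rats, by 1.09 in MS+ and 0.77 in MS- against FBS with the rat as a block (limma adjusted p = 2.48e-05 and 0.000888), while without the block the gap between the rats left it at 0.106 and 0.283. Between MS+ and MS-, 0 genes of this list passed without the block (0.0204% of features) and 3 at an unadjusted p under 0.05 (14.7%). With the block 3 were higher (5.27% of features): Pdk4 by 1.26, Slc16a7 by 0.61 and Pdha1 by 0.35 (limma adjusted p = 0.000415, 0.0041 and 0.0134). Ldhb, the lactate dehydrogenase form that favours pyruvate, was higher in rat 2 in each serum, at 13.6 to 15.9 CPM against 4.86 to 9.0 in rat 1. Slc16a1, the carrier MCT1, lay between 30.0 and 40.7 CPM, Pdk1, a second kinase of the dehydrogenase, between 9.55 and 14.4 CPM, and none of these 3 passed in any comparison.

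**Figure D3:**
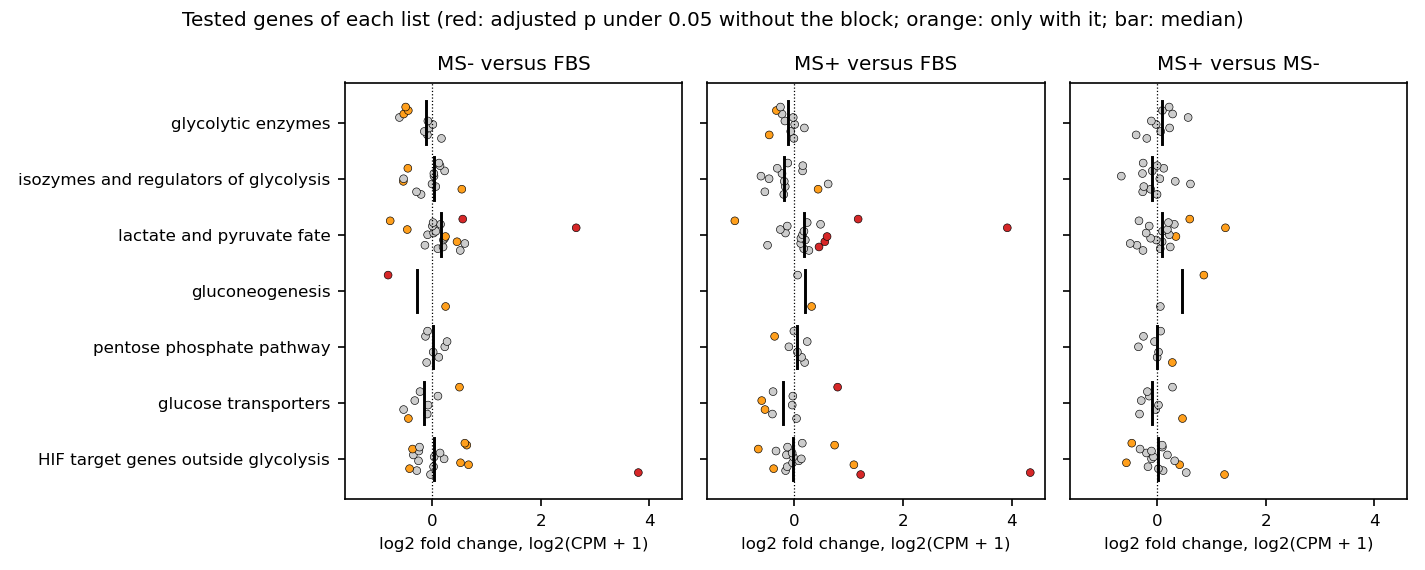
Log2 fold change on the log2(CPM + 1) scale (x axis) of each tested gene, grouped by list (y axis), in the 3 comparisons, with red points for a limma adjusted p under 0.05 without the rat as a block, orange for calls only with it, and black bars for list medians. The enzymes lie within about 0.60 of 0, while Pdk4 among the pyruvate genes reaches 3.92 and Angptl4 among the HIF targets 4.34.

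Uptake of glucose, the source of the pathway, is served by transporters of the Slc2a family, of which 8 of 11 were tested. Slc2a1, the carrier GLUT1, was at 110 and 73.1 CPM with FBS, 78.3 and 56.2 with MS- and 100 and 85.2 with MS+. With the block it fell by 0.43 in MS- against FBS and was 0.47 higher in MS+ than in MS- (limma adjusted p = 0.008 and 0.00923, against 0.342 and 0.411 without the block). Slc2a9, best known as a urate carrier, rose in MS+ against FBS by 0.80 without the block (0.0108), from 27.7 and 27.2 CPM to 46.8 and 49.9. It was the only transporter called there without the block, where 4.95% of features were called higher and 4.66% lower. Slc2a3, the carrier GLUT3, fell by 0.60 and Slc2a12 by 0.54 in MS+ against FBS with the block (0.00147 and 0.0361, against 0.0884 and 0.108 without). With the block, 1 transporter was higher and 2 lower in MS+ against FBS (14.4% and 13.9% of features). In MS- against FBS 1 was higher and 1 lower (10.8% and 9.63%), and in MS+ against MS- 1 was higher (5.27%).

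Of the side routes, gluconeogenesis had 2 tested genes of 6. Pck2, the mitochondrial enzyme that makes phosphoenolpyruvate, was at 116 and 97.3 CPM with FBS, 65.5 and 55.7 with MS- and 103 and 119 with MS+, and both MS- libraries lay far below the others. It fell by 0.80 in MS- against FBS (limma adjusted p = 0.0262 without and 9.43e-05 with the block), and was 0.87 higher in MS+ than in MS- with the block (0.000231, against 0.109 without). G6pc3, a glucose 6-phosphatase, rose by 0.32 in MS+ and 0.25 in MS- against FBS with the block (0.00864 and 0.039). With the block, 14.4% of all features were called higher in MS+ against FBS and 5.27% in MS+ against MS-. In MS- against FBS 10.8% were called higher and 9.63% lower. In the pentose phosphate pathway, with 7 tested genes of 8, 0 passed without the block. There 0.0204%, 9.61% and 4.81% of features passed in MS+ against MS-, MS+ against FBS and MS- against FBS. At an unadjusted p under 0.05, 1, 1 and 0 passed in the same order, against 14.7%, 27.5% and 21.1% of features. With the block, Taldo1, a transaldolase, fell by 0.36 in MS+ against FBS (limma adjusted p = 0.0144), where 13.9% of features were called lower.

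Among targets of HIF outside glycolysis, calls with the rat as a block went in both directions. Of 17 tested genes, without the block 2 were higher in MS+ than in FBS (Angptl4 and Adm), where 4.95% of features were called higher. In MS- against FBS 1 was higher (Angptl4, against 2.09% of features) and in MS+ against MS- 0 (0.0102%). In this last comparison 4 had an unadjusted p under 0.05, as did 14.7% of features. With the block, 4 were higher and 2 lower in MS+ against FBS (14.4% and 13.9% of features). In MS- against FBS 5 were higher and 2 lower (10.8% and 9.63%), and in MS+ against MS- 2 were higher and 2 lower (5.27% and 4.78%). Hif1a itself, the oxygen-regulated subunit, lay between 140 and 162 CPM in the 6 libraries and passed in no comparison. Angptl4, a secreted lipase inhibitor that PPAR receptors also control, was at 0.49 and 0.50 CPM in FBS, at the floor of 3 reads, 17.6 and 22.2 in MS-, and 24.9 and 34.3 in MS+. Adm, a vasodilator peptide, was at 8.35 and 5.31 CPM with FBS, 6.77 and 6.33 with MS- and 14.8 and 19.3 with MS+. Car9, a carbonic anhydrase of the cell surface, was higher in rat 2 in each serum, at 39.5 and 88.5 CPM with FBS, 62.0 and 146 with MS- and 84.9 and 191 with MS+, and rose by 1.09 in MS+ against FBS with the block (limma adjusted p = 4.98e-07, 0.255 without). P4ha2, a collagen prolyl hydroxylase, rose by 0.74 in MS+ and 0.64 in MS- against FBS with the block (2.19e-05 and 0.000105, against 0.28 and 0.416 without), at 253 and 145 CPM with FBS, 425 and 211 with MS- and 403 and 255 with MS+.

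The mean standardised profile of the 10 members was highest in the FBS library of rat 1, so genes alike in pattern share that peak. Over the 6 libraries the 5 tested features with the highest Pearson r to that profile were Nxph4 (0.997), Rps24 (0.989), Mesdc2 (0.987), Dus2l (0.983) and Exosc5 (0.981). The 6 points share rats, sera and depth, and the likeness is a description with no test.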

How the data were processed

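Poly(A)-selected RNA of 6 cultures was sequenced. Low-quality reads were removed by the sequencing company. Per the submitters' notes and the methods, the authors aligned reads to rn4 with Bowtie2 2.1.0, which does not split reads over introns, and counted them per transcript with HTSeq 0.5.4p3 (intersection-nonempty), which drops reads shared by overlapping transcripts. The deposited signal is CPM scaled by TMM library sizes. Dividing by the value of 1 read gave whole reads for 100% of values (tolerance 1e-06).

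Features at 1 CPM or more in both libraries of a condition were kept, which left 9820. Differences were tested two-sided with limma 3.58.1 (eBayes with trend, R 4.3.3) on log2(CPM + 1), all 6 libraries in 1 fit, with Benjamini-Hochberg adjustment over all 9820. The study used limma-voom. Here voom, edgeR 4.0.16 and DESeq2 1.42.0 on recovered reads were alternatives. Libraries pair by rat, since the labels name the same 2 rats in each condition. Differences between the rats correlated across features by 0.616 (FBS, MS-), 0.494 (FBS, MS+) and 0.59 (MS-, MS+), so the fit with the rat as a block is given beside the other. Members and lists were chosen with earlier results of these data known. Named genes were the members, up to 4 called genes per list by size of change, and 10 set genes, and 1 gene that this rule names is not reported here. The pipeline was tested on simulated data. Floors cover counting error only.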

Additional observations from a re-analysis of the deposited data

How the results depend on the processing

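The direction and side of the threshold of member results were recomputed under other normalizations, filters, pseudocounts and tools, with the rat as a block, and with each library left out. The block raised the features called to 987 in MS+ against MS-, 2773 in MS+ against FBS and 2011 in MS- against FBS, from 2, 944 and 472. edgeR with the block called 995, 2851 and 2066, and limma-voom with the block 987, 2793 and 2032. With no filter, 0, 586 and 255 were called, and DESeq2 called 124 in MS+ against MS-. Leaving out 1 library gave 0, 25 to 602 and 105 to 280 without the block. The same with the block, an alternative chosen after seeing the data, gave 97 to 1631, 2042 to 2727 and 638 to 2714.

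Among the members, the block, edgeR with the block and voom with the block each called 2 in MS+ against FBS and 3 in MS- against FBS. In MS- against FBS, DESeq2 called 2, DESeq2 size factors 1 and library totals 1. Leaving out 1 library gave 0 in each comparison without the block, and with it 0 to 2 in MS+ against MS-, 0 to 4 in MS+ against FBS and 1 to 3 in MS- against FBS. With a library left out, the member median ranged from 0.034 to 0.15 in MS+ against MS-, from -0.30 to -0.028 in MS+ against FBS and from -0.22 to -0.014 in MS- against FBS. The cause of these shifts was not tested, beyond the smaller residual spread that a block leaves and the fewer samples of a left-out fit.

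The other lists had 13 isozymes and regulators, 19 pyruvate genes, 2 genes of gluconeogenesis, 7 of the pentose phosphate pathway, 8 transporters and 17 HIF targets tested. With the block, limma called 10.1% of all features in MS+ against MS-, 28.2% in MS+ against FBS and 20.5% in MS- against FBS. In these lists, limma, edgeR and voom with the block called, in MS+ against MS-, 3 pyruvate genes each, 1 gene each of gluconeogenesis, the pentose phosphate pathway and the transporters, and 4, 5 and 5 HIF targets. There DESeq2 called 1 pyruvate, 1 gluconeogenesis and 1 HIF gene. In MS+ against FBS each called 1 isozyme, 1 gene of gluconeogenesis, 1 of the pentose phosphate pathway, 3 transporters and 6 HIF targets, while with no filter 1 HIF target was called. Leaving out 1 library gave 1 to 4 pyruvate genes, 0 to 1 transporter and 1 HIF target there. In MS- against FBS they called 3 isozymes each, 6, 5 and 6 pyruvate genes, 2 genes of gluconeogenesis, 2, 3 and 3 transporters and 7 HIF targets. There 1 pyruvate gene was called with no filter, DESeq2 size factors, library totals, DESeq2, limma-voom or a library left out, 0 genes of gluconeogenesis with no filter or a library left out, and 2 HIF targets by edgeR, DESeq2 and limma-voom. Without the block, Pdk4 and Angptl4 stayed called against FBS in 6 of 6 fits that left out a library and Slc16a7 in 5 of 6 for MS+ (adjusted p = 0.0523 without rat 1 of MS+). Pdha1 (3 of 6), Slc2a9 (2 of 6), Adm (0), Pck2 (0) and Slc16a7 for MS- (0) did not stay called.

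The sign turned for Ldha in MS+ against FBS with library totals (-0.042) and DESeq2 (-0.00086), and in MS- against FBS with library totals (-0.012). With a library left out, in ranges that pool the fits without and with the block (Car9 and Bpgm without it only), it turned for Pfkp (-0.24 to 0.043), Aldoa (-0.45 to 0.082), Ldha (-0.17 to 0.15) and Car9 (-0.19 to 1.028) in MS+ against MS-. It turned for Aldoa (-0.31 to 0.29), Gapdh (-0.18 to 0.049), Pgam1 (-0.31 to 0.27), Ldha (-0.15 to 0.17) and Bpgm (-0.37 to 1.24) in MS+ against FBS. In MS- against FBS it turned for Gpi (-0.22 to 0.11), Pfkp (-0.22 to 0.071), Aldoa (-0.13 to 0.48), Eno1 (-0.21 to 0.044), Ldha (-0.10 to 0.14) and Bpgm (-0.29 to 1.39). None of these was called without the block. Gpi and Pfkp turned only in fits without the block, and with it ran from -0.061 to -0.040 and from -0.11 to -0.040 in MS- against FBS, and Pfkp from -0.13 to -0.068 in MS+ against MS-.

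In each library 9 members had at least 88 reads and Pgam1 had 11 to 26. Where a left-out library leaves 1 in a condition, that sample is assumed to vary like the others.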

Other observations

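Fast myosin heavy chain transcripts, contractile genes of skeletal muscle named here after their values were seen, were higher in the cells of rat 2 in each serum. Myh1 was at 24.2 and 271 CPM in FBS (rat 1 and rat 2), 47.6 and 209 in MS-, and 19.6 and 88.3 in MS+. Myh2 was at 7.53 and 57.7 CPM in FBS, 11.5 and 41.8 in MS-, and 6.13 and 22.6 in MS+. Myh4 followed them, at 3.27 and 19.7 CPM in FBS, 5.12 and 17.4 in MS-, and 1.62 and 8.99 in MS+. Acta1, Myod1, Ckm, Mylpf and Tnnt3, also in the 11-gene muscle list, did not, and Tnni2 had 0 reads. Myog and Des of that list are not described here. Tnnt3 was at 6.71 and 7.30 CPM in FBS, 7.87 and 5.06 in MS-, and 6.67 and 7.71 in MS+. Ckm and Mylpf had 8 reads or fewer in each library. Acta1, the most abundant, was higher in rat 1, at 1113 and 929 CPM in FBS, 912 and 766 in MS-, and 1200 and 1026 in MS+, and Myod1 had 33 and 4 reads in FBS and 1 to 4 in the other libraries. In the same libraries, Gpi, Pfkp, Tpi1 and Eno1 were lower in rat 2 than in rat 1 under all 3 sera, and Ldhb and Car9 were higher.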
